A study of Rattus norvegicus with 16 samples.

Results

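The mir-17-92 and mir-106b-25 clusters were followed through small RNA libraries of the rat. Members were chosen by name, with earlier results of these data known, as the reads of 8 listed precursor hairpins of the 392 in the data. They are rno-mir-18a, rno-mir-19a, rno-mir-20a, rno-mir-19b-1 and rno-mir-92a-1 of mir-17-92, and rno-mir-106b, rno-mir-93 and rno-mir-25 of mir-106b-25. Their reads fall on 16 arms (the 5p and 3p sides of a hairpin) of the 712 in the data. Whole organs were used: spleen, liver, kidney, testis, heart and brain, from adult males of the inbred strains BN-Lx (a Brown Norway line with the polydactyly-luxate mutation) and SHR (the spontaneously hypertensive rat), with 1 library for each organ and strain. Per the study's methods, 1 rat of each strain gave all 6 tissues, so the strains are the only replicates of a tissue. A further 4 livers, 2 of each strain, bring the number to 16 libraries and 3 livers of each strain. A library of whole tissue mixes cell types, and fewer cells of a type and less RNA per cell cannot be told apart in it.

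A miRNA cluster of this kind is transcribed as a single primary transcript from which the hairpins are cut out one by one, so its members start from equal numbers of hairpins and can still differ in mature amount. mir-106b-25 is a paralogue of mir-17-92, and in the rat annotation its hairpins lie inside the gene Mcm7, which encodes a helicase subunit used in DNA replication. Both clusters are known from dividing cells, blood cells and tumours, where they repress inhibitors of the cell cycle and promoters of cell death. A miRNA finds its targets mainly through its seed, bases 2 to 8, and the members of both clusters fall into 4 seed families.

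The mature sequences of the 8 guide arms (the arm that is usually kept) are shown because the families, and the reads that cannot be told apart between hairpins, follow from them. Sequences are from RefSeq for the build GRCr8, 5′ to 3′, with the seed in capitals. The family of AAAGUGC holds mir-20a, mir-106b and mir-93.
mir-20a-5p: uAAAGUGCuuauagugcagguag
mir-106b-5p: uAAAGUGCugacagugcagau
mir-93-5p: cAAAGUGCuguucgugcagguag
mir-18a stands alone among the members with a seed in which 1 letter differs.
mir-18a-5p: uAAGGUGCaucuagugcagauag
The family of GUGCAAA holds mir-19a and mir-19b-1.
mir-19a-3p: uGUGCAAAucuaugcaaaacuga
mir-19b-1-3p: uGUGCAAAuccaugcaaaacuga
The family of AUUGCAC holds mir-92a-1 and mir-25, 1 from each cluster.
mir-92a-1-3p: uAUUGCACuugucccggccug
mir-25-3p: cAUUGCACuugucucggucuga

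Counted base by base from the 5′ end, mir-19a-3p and mir-19b-1-3p differ at 1 of 23 bases. mir-92a-1-3p and mir-25-3p differ at 3 of 21, mir-20a-5p and mir-106b-5p at 3 of 21, mir-20a-5p and mir-93-5p at 4 of 23, and mir-18a-5p and mir-20a-5p at 4 of 23. The 5 listed mir-17-92 hairpins span 649 bases at chr15:98587984-98588632 on the plus strand of GRCr8, in the order 18a, 19a, 20a, 19b-1 and 92a-1, and no gene of the annotation spans them. On the minus strand of chromosome 12, mir-93 lies at chr12:22156844-22156930 and mir-25 at chr12:22156641-22156724. The read start that led on each arm was the RefSeq start for the 14 arms that could be compared.

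Some of these reads belong to more than 1 hairpin. The rat genome has a further copy of mir-19b-1 (mir-19b-2) and of mir-92a-1 (mir-92a-2) with the same mature sequence, and the copies first differ at base 24 and base 22 counted from the mature start, as the capitals show.
mir-19b-1: ugugcaaauccaugcaaaacugaCUG
mir-19b-2: ugugcaaauccaugcaaaacugaUUG
mir-92a-1: uauugcacuugucccggccugUUGAG
mir-92a-2: uauugcacuugucccggccugAGGAA
Of all guide reads of mir-19b-1, 99.99% lay at positions that mir-19b-2 shares, and the authors divided such reads evenly, so the values of mir-19b-1 hold an even portion of reads that could come from either copy. In the BN-Lx brain, for example, mir-19b-1-3p had 1437 reads and mir-19b-2-3p 1433. For mir-92a-1 the shared portion was 13.8%. The hairpin mir-17-1, which belongs to the same cluster and to the AAAGUGC family, is not among the listed members and is given with the related hairpins.

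In the six-tissue set a library held 26880 to 1064894 reads and the further livers 1167607 to 3229461. Both testis libraries were the shallowest, at 26880 and 29131 reads, and were made with more PCR cycles, as was a liver library of SHR per the study's methods. The members took 0.290 to 3.21% of the reads of a library. In the following, a level is in CPM (counts per 1e6 reads of the library size after TMM scaling, the trimmed mean of M values), and a difference is on the log2 scale. Listed marker miRNAs of brain (6 of 6), liver (1 of 1), heart (4 of 4), testis (6 of 6 found) and spleen (3 of 3 found) were each higher in both libraries of their own tissue than in the other 10, and of the kidney list 1 of 5 was.

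Summed over both arms of its 5 listed hairpins, with the reads divided evenly with mir-19b-2 and mir-92a-2 included, mir-17-92 was highest in spleen and lowest in brain. Its level was 24262 in the spleen of BN-Lx and 22544 in that of SHR, followed by liver at 13393 and 14364, testis at 9799.9 and 10344, kidney at 7278 and 8181, heart at 4895 and 4023, and brain at 1147 and 1032. The pairs of libraries of neighbouring tissues in this order did not overlap. As an unscaled share of the library the order was less clear: both testes (2.48% and 2.30%) lay within the range of the spleens (2.15% and 2.58%), and brain, at 0.196% and 0.199%, was still the lowest.

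mir-106b-25 was lower in every library, and its order had less separation. Its summed level was 5005 and 5517 in spleen, 1679 and 2242 in testis, 1381 and 1133 in kidney, 1314 and 881 in liver, 888 and 782 in heart, and 635 and 475 in brain. Kidney and liver overlapped, as did liver and heart. As an unscaled share, both hearts (0.0872% and 0.0741%) and the SHR liver (0.0692%) were below both brains (0.109% and 0.0915%), and spleen (0.443% and 0.631%) and testis (0.424% and 0.498%) overlapped at the top.

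The guides are given next in order of the hairpins on the transcript, BN-Lx before SHR in each tissue. The level of mir-18a-5p was 51.5 and 36.8 in brain, 282 and 139.6 in liver, 1054 and 523 in spleen, 172 and 55.3 in heart, 501 and 1515 in testis, and 149.8 and 81.4 in kidney. It was highest in testis in SHR and in spleen in BN-Lx, and both testis values rest on few reads (34 and 98). The level of mir-19a-3p was 77.3 and 50.1 in brain, 1009 and 992 in liver, 2199 and 2381 in spleen, 406 and 156 in heart, 1414 and 727 in testis, and 601 and 666 in kidney. Both spleens were above and both brains below the other 10 libraries. The level of mir-20a-5p was 86.6 and 78.5 in brain, 446 and 404 in liver, 884 and 1088 in spleen, 164 and 309.9 in heart, 147 and 387 in testis, and 538 and 252 in kidney. Here too spleen and brain stood at the ends, while heart, testis and kidney overlapped, with 10 and 25 reads behind the testis values.

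The level of mir-19b-1-3p, the most frequent member, was 788 and 549 in brain, 7121 and 7653 in liver, 13706 and 14358 in spleen, 3099 and 2403 in heart, 6332 and 4005 in testis, and 4938 and 5989 in kidney. At this scaling spleen and brain were again apart from the rest, and the strains differed most in testis. The level of mir-92a-1-3p was 112 and 300.3 in brain, 4310.1 and 4975 in liver, 5951 and 3726 in spleen, 991 and 1024 in heart, 1171 and 3448 in testis, and 919.7 and 1105 in kidney. Brain was below all others, whereas spleen and liver overlapped at the top.

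Of the mir-106b-25 guides, mir-106b-5p had the flattest profile, with a level of 221 and 191 in brain, 338 and 269 in liver, 598 and 1204 in spleen, 237 and 261 in heart, 132.5 and 572 in testis, and 378 and 233 in kidney. Both spleens were above the other libraries, and the BN-Lx testis was the lowest, with 9 reads. mir-93-5p was the rarest guide, with 8 to 83 reads in each of the 12 libraries and a level of 42.2 and 15.1 in brain, 30.7 and 58.4 in liver, 78.2 and 119.7 in spleen, 42.9 and 33.5 in heart, 177 and 123.7 in testis, and 126 and 62.6 in kidney. Its tissues overlapped, with the highest single value in the BN-Lx testis. mir-25-3p had a level of 201 and 142.5 in brain, 748 and 294 in liver, 3362 and 3439 in spleen, 247 and 345 in heart, 1046 and 1021 in testis, and 789.6 and 660.0 in kidney. Both spleens were above and both brains below the other 10 libraries. Such separations depend on the scaling. The study scales by an outlier-corrected mean (the mean over arms without the 3 most frequent). On that scale the BN-Lx testis exceeded the BN-Lx spleen, 1.69-fold for mir-19a-3p and 1.21-fold for mir-19b-1-3p. Heart, not brain, was then lowest for mir-25-3p in BN-Lx (1.19-fold below the next tissue) and for mir-18a-5p in SHR (1.18-fold).

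**Figure D1:**
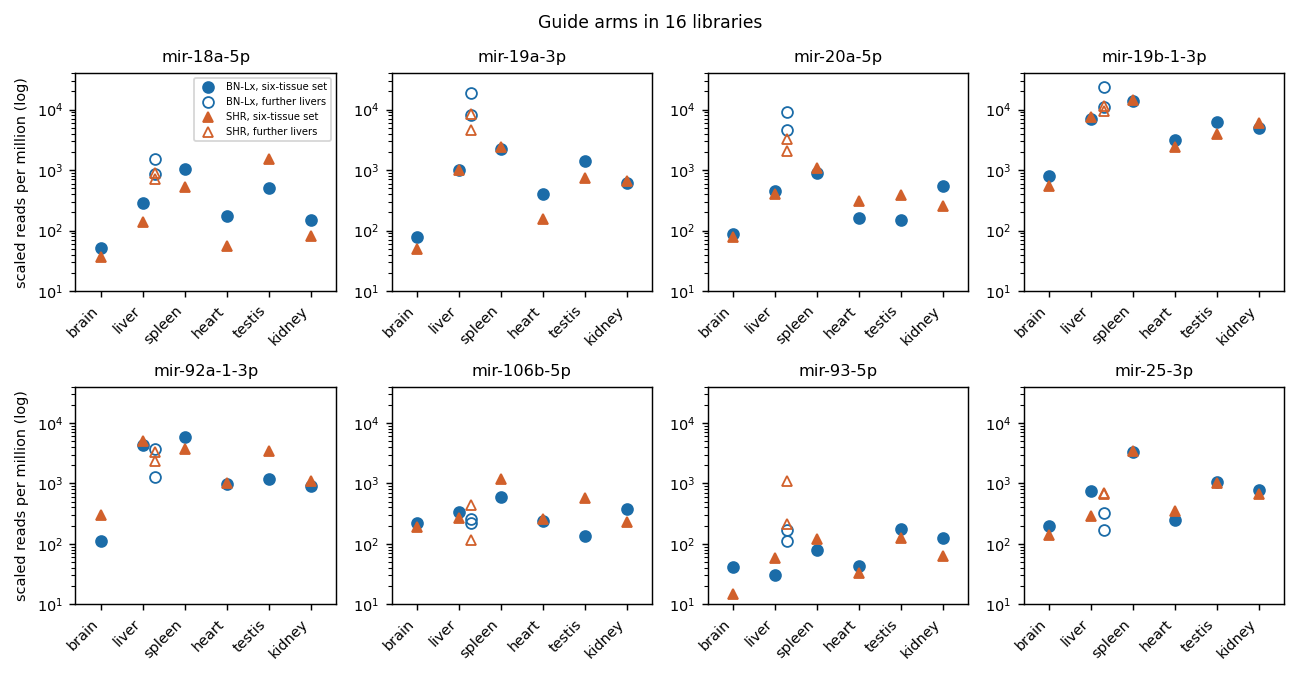
Level of each guide arm (CPM after TMM scaling, log axis) in the 6 tissues, 1 point per library, with BN-Lx as circles, SHR as triangles and the further livers as open symbols. Spleen is high and brain low for most guides. At this scaling the further livers lie above the six-tissue livers for mir-18a-5p, mir-19a-3p, mir-20a-5p, mir-19b-1-3p and mir-93-5p.

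Whether the levels differ between tissues at all was tested over the 12 libraries with the strain as a term (edgeR quasi-likelihood test, Benjamini-Hochberg adjustment over 440 arms, threshold 0.05). Of the 16 member arms 15 had enough reads to be tested, and 12 passed, beside 84.3% of all arms tested, so the share of members that varied between tissues was close to the background. The arms that did not pass were mir-106b-5p (edgeR, adjusted p = 0.0570), mir-93-5p (edgeR, adjusted p = 0.0570) and mir-25-5p (edgeR, adjusted p = 0.1005). The arm not tested, mir-19a-5p, had at most 4 reads in any library.

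In brain, most members were lower. Against the mean of the other 5 tissues, 9 of 15 arms were lower and 0 higher, where 23.0% of all arms tested were lower, and the median difference was -2.28 over the members and 0.44 over all arms. All guides of mir-17-92 were among the 9. The difference was -3.75 ± 0.511 (SE; edgeR, adjusted p = 4.78e-05) for mir-19a-3p, a miRNA known for its oncogenic part within the cluster, and -3.19 ± 0.324 (edgeR, adjusted p = 4.00e-06) for mir-19b-1-3p. It was -3.51 ± 0.518 (edgeR, adjusted p = 8.97e-05) for mir-92a-1-3p, a known regulator of blood vessel growth. mir-18a-5p differed by -2.72 ± 0.626 (edgeR, adjusted p = 0.00235) and mir-20a-5p by -2.27 ± 0.533 (edgeR, adjusted p = 0.00260).

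The passenger arms mir-20a-3p, mir-19b-1-5p and mir-92a-1-5p were lower in brain as well, by -2.50, -3.51 and -3.96, and mir-18a-3p, at -1.07 (edgeR, adjusted p = 0.275), did not pass. Few brain reads lie behind mir-19b-1-5p (9 and 1) and mir-92a-1-5p (7 and 5; BN-Lx and SHR). In mir-106b-25, mir-25-3p alone passed, at -2.28 ± 0.447 (edgeR, adjusted p = 0.000774). mir-106b-5p differed by -0.84 ± 0.513 (edgeR, adjusted p = 0.190) and mir-93-5p by -1.45 ± 0.600 (edgeR, adjusted p = 0.0542), and whether they differ in this from the mir-17-92 guides was not tested. With TMM scaling, both brains were below the other 10 libraries for 9 of the 16 member arms, which holds for 5.59% of the arms with reads.

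In spleen, nearly all members were higher. Here 13 of 15 arms were higher than the mean of the other tissues and 0 lower, where 19.8% of all arms tested were higher, and the median difference was 2.14 over the members and 0.06 over all arms. The largest guide difference was that of mir-25-3p, 2.91 ± 0.315 (edgeR, adjusted p = 3.31e-05), followed by mir-19a-3p with 2.52 ± 0.331 (edgeR, adjusted p = 0.000172). Those of mir-18a-5p, mir-20a-5p, mir-19b-1-3p and mir-92a-1-3p lay between 2.01 and 2.20, and all passed. mir-106b-5p rose by 1.65 ± 0.434 (edgeR, adjusted p = 0.0143). mir-93-5p (0.81 ± 0.517; edgeR, adjusted p = 0.295) and mir-25-5p (1.63 ± 0.615; edgeR, adjusted p = 0.0639) did not pass.

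With TMM scaling, both spleens were above the other 10 libraries for 9 of the 16 member arms, which holds for 9.6% of the arms with reads. Without the spleen library of BN-Lx 5 member arms passed in spleen, and without that of SHR 6. Marker miRNAs of white blood cells (3 of 4 listed found) were also highest in spleen: their summed level was 164558 to 209698 there and 4269 to 23342 in the other tissues. Those of the red cell lineage, mir-144 and mir-451, summed to 51068 to 102527 in spleen and 957 to 26022 elsewhere. Outside spleen the order of the markers was only in part that of mir-17-92. As with mir-17-92, the white cell markers were higher in liver (14475 and 18362, BN-Lx and SHR) than in testis. Within each strain they were lowest in brain (4563 and 4269), whereas the red cell markers were lowest in testis. Heart and testis were in the opposite order to mir-17-92. The white cell markers summed to 23151 and 23342 in heart and to 6096 and 6865 in testis (BN-Lx, SHR). The red cell markers summed to 26022 and 13374 in heart and to 957 and 1113 in testis. The level of mir-17-92 was 4895 and 4023 in heart and 9799.9 and 10344 in testis. The part of blood cells in the levels of the members was not tested.

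**Figure D2:**
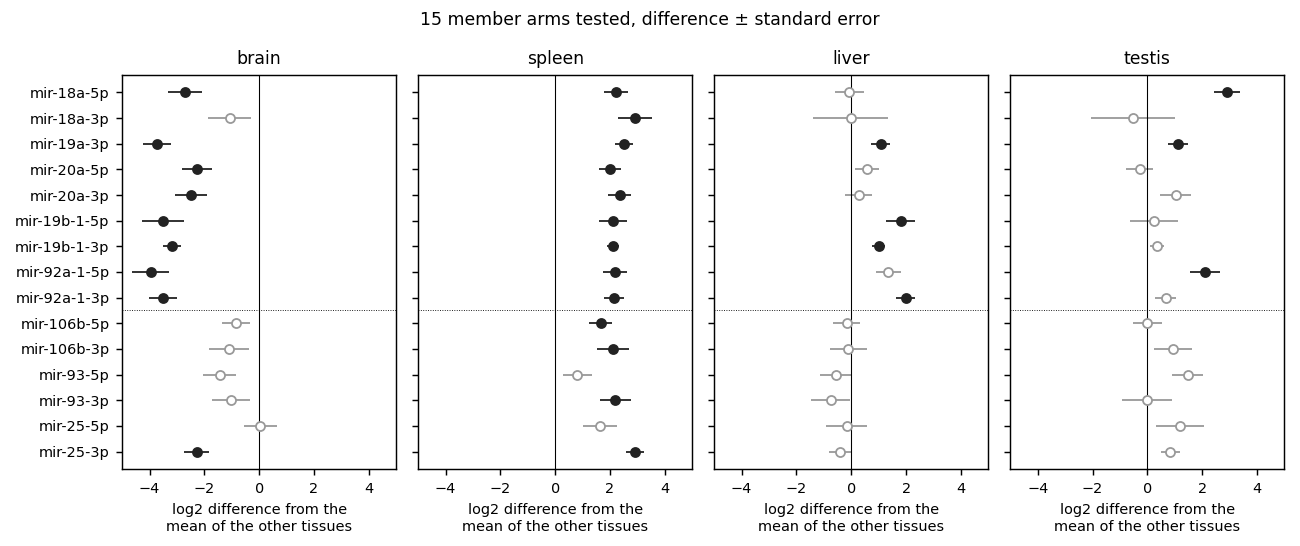
Difference of the 15 tested member arms between a tissue and the mean of the other 5 (log2, horizontal axis) in brain, spleen, liver and testis, with bars of 1 standard error; filled points passed the test at an adjusted p of 0.05, and the dotted line parts mir-17-92 (above) from mir-106b-25. In spleen 13 arms lie to the right and passed, in brain 9 lie to the left and passed.

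In liver and testis a few members passed, and the count moved with the scaling. In liver, 4 arms were higher, where 14.5% of all arms were: mir-92a-1-3p by 1.99 ± 0.347 (edgeR, adjusted p = 0.00120), mir-19b-1-5p by 1.80 ± 0.544 (edgeR, adjusted p = 0.0303), mir-19a-3p by 1.07 ± 0.358 (edgeR, adjusted p = 0.0453) and mir-19b-1-3p by 0.99 ± 0.236 (edgeR, adjusted p = 0.00958). Scaled by total reads or by the outlier-corrected mean of the study (the mean over arms without the 3 most frequent), 1 of them passed, and without either liver library also 1. The guides of mir-106b-25 differed by -0.56 to -0.16 in liver, and none passed.

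In testis, 3 arms were higher, where 10.7% of all arms were: mir-18a-5p by 2.91 ± 0.476 (edgeR, adjusted p = 0.000548), mir-92a-1-5p by 2.11 ± 0.544 (edgeR, adjusted p = 0.0128) and mir-19a-3p by 1.11 ± 0.367 (edgeR, adjusted p = 0.0456). The testis values of mir-92a-1-5p rest on 10 (BN-Lx) and 6 (SHR) reads. The median of all arms was -0.88 in testis with TMM and 0.17 with total reads, and with the latter 8 member arms passed, among 101 arms in all that were higher, against 47 with TMM. Without either testis library 1 arm passed. Without the SHR testis, mir-18a-5p differed by 1.25 (edgeR, adjusted p = 0.139) and lost its call, and over all alternatives it ranged from 1.25 to 3.90 (edgeR or DESeq2, adjusted p from 5.97e-08 to 0.139). mir-19a-3p lost its testis call in 9 of 19 alternatives, all of them a library left out, and without the BN-Lx testis it differed by 0.77 (edgeR, adjusted p = 0.439). In heart 0 of 15 members passed (19.1% of all arms did, in either direction), with 4 at an unadjusted p under 0.05 and 6 called by DESeq2, and mir-25-3p was nearest at -1.29 ± 0.417 (edgeR, adjusted p = 0.0501). In kidney 0 of 15 passed (22.5% of all arms did), with 1 at an unadjusted p under 0.05 and 2 called by DESeq2, and mir-106b-3p was nearest at -2.10 ± 0.807 (edgeR, adjusted p = 0.0840).

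Across scalings the median of all arms moved, in brain from 0.44 (TMM) to 1.18 (total reads) and in testis from -0.88 to 0.17, and the medians of the members moved with it. Relative to all arms, the median of the members was shifted by -2.86 to -2.72 in brain, by 2.06 to 2.09 in spleen, 1.72 to 1.73 in testis and 0.29 to 0.31 in liver under the 4 scalings. The direction of calls over all arms moved too. With TMM and with total reads, 62.3% and 74.7% of the called arms were higher in brain, 54.7% and 25% in liver, 64.4% and 50% in spleen, 67.9% and 41.7% in heart, and 43.5% and 83.5% in testis, and in kidney it was 68.7% with TMM and 54.3% with RLE size factors.

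The study's own rule calls a miRNA tissue-specific or tissue-avoidant where it is at least 5-fold higher or lower in 1 tissue than in each other tissue, in both strains. Of the 16 member arms 0 met it, against 34.8% of the 698 arms with reads in these libraries. On the scale of that rule (the outlier-corrected mean), mir-18a-5p was 4.71-fold higher in the SHR testis than in the next tissue, spleen, and 1.25-fold in BN-Lx. mir-92a-1-3p was lowest in brain in both strains, 6.05-fold below the next tissue in BN-Lx and 1.93-fold in SHR. With the libraries of 1 strain alone, 2 arms (BN-Lx) or 4 arms (SHR) met the rule.

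Within each cluster, the guides took unequal shares of the reads. Since ligation captures small RNAs with unequal efficiency, such shares describe reads and not molecules, and the size of a share is not a molar proportion. Over the 12 six-tissue libraries mir-19b-1-3p took 39.7 to 74.0% of the mir-17-92 guide reads (median 62.5%), mir-92a-1-3p 10.01 to 35.1%, mir-19a-3p 3.95 to 14.8%, mir-20a-5p 1.54 to 7.85% and mir-18a-5p 0.986 to 15.03%. Nearly all mir-19b-1-3p reads (99.99%) could come from mir-19b-2 as well, so all these shares depend on the even division. In mir-106b-25, mir-25-3p took 40.9 to 83.3%, mir-106b-5p 9.78 to 54.8% and mir-93-5p 1.94 to 13.04%. The upper end for mir-18a-5p was the SHR testis, where 98 of 652 reads were its own.

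Whether such proportions hold across tissues was asked with an exact permutation test of the log ratio of each pair of guides in a cluster, over all 10395 ways to put the 12 libraries into 6 pairs, together with arm shares, read starts, lengths and the ratio of the clusters (38 tests, one-sided on the share of the variance that lay between tissues). After Benjamini-Hochberg adjustment 0 of the 38 passed (0.0%), and the smallest adjusted p was 0.150, so that a change of proportion was not detected. The test that came nearest among the 13 pair ratios was mir-19a-3p to mir-19b-1-3p (exact permutation p = 0.0442, adjusted p = 0.191), whose tissue means ranged over 2.19-fold from heart to testis. The widest range was that of mir-18a-5p to mir-20a-5p, 11.8-fold from kidney to testis (exact permutation p = 0.0773, adjusted p = 0.196), with strains apart by up to 2.53 on the log2 scale.

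The proportion of the clusters to each other had the smallest p. The reads of mir-17-92 were 1.81 and 2.17 times those of mir-106b-25 in brain (BN-Lx and SHR), 10.2 and 16.3 times in liver, 4.85 and 4.09 in spleen, 5.51 and 5.14 in heart, 5.84 and 4.61 in testis, and 5.27 and 7.22 in kidney. Brain lay below and liver above the other tissues in both strains, and the tissue means spanned 6.51-fold. The exact permutation test gave p = 0.00394 and an adjusted p of 0.150 over the 38 tests, so the ratio did not pass. The ratio needs no scaling between libraries, but its mir-17-92 side holds the reads divided evenly with mir-19b-2 and mir-92a-2.

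**Figure D3:**
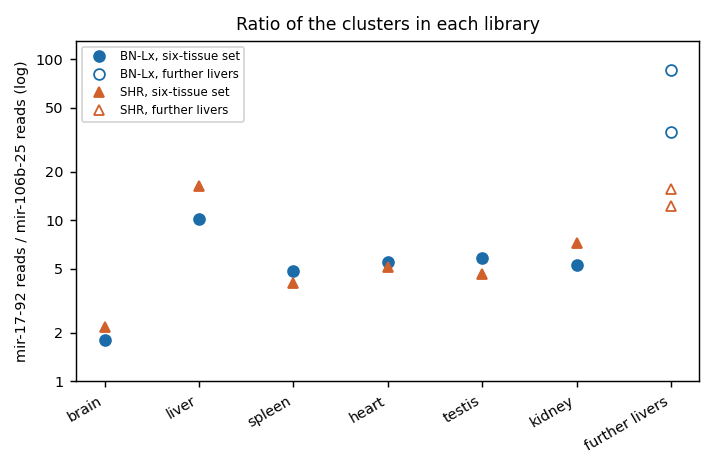
Reads of the 5 listed mir-17-92 hairpins divided by those of the 3 mir-106b-25 hairpins (log axis), 1 point per library. Brain is lowest at 1.81 and 2.17, the six-tissue livers stand at 10.2 and 16.3, and the further livers range from 12.3 to 85.3.

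Other hairpins of the same seed families were found for 8 of 10 listed. In the AAAGUGC family mir-17-1 and mir-17-2 took most of the guide reads in the six-tissue set (medians of 47.8% and 35.2%), and their reads are in part shared. mir-106b and mir-93 together took 23.6% and 17.3% of that family in brain, and 4.19 to 8.49% in the other 10 libraries of the set, so that both brains stood above the rest, a difference that was not tested. In the AUUGCAC family mir-92a-1 took a median of 55.0% and mir-25 5.03 to 43.6%.

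The exception among the related hairpins was mir-92b-3p, known from neural precursors.
mir-92b-3p: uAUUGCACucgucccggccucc
It was higher in brain by 5.497 ± 0.491 (edgeR, adjusted p = 1.32e-06) and took 38.6% and 40.1% of the AUUGCAC reads there, against at most 0.404% in any other library of the set. Its level was 213 and 321 in brain and at most 15.5 elsewhere in that set. Of the 11 related arms tested, 9 were lower in brain, where 23.0% of all arms tested were, and 1, this one, was higher. In spleen 10 of 11 were higher, where 19.8% of all arms tested were. Among them were mir-20b-5p at 4.49 ± 0.586 (edgeR, adjusted p = 0.000221) and mir-363-3p at 4.33 ± 0.582 (edgeR, adjusted p = 0.000192), both members of the third paralogous cluster, and mir-17-1-5p at 1.89 ± 0.269 (edgeR, adjusted p = 0.000292). These arms are not all separate from the members or from each other. Of the mir-19b-1 guide reads 99.99% are shared with mir-19b-2, and of those of mir-17-1 61.7% with mir-17-2. The spleen differences of mir-20b-5p and mir-363-3p exceeded those of the 8 guides, and that excess was not tested.

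Which arm of a hairpin was kept differed between members. The 3p arm led for mir-25, mir-19a, mir-19b-1 and mir-92a-1 and the 5p arm for mir-18a and mir-20a in every library, while either arm could lead for mir-106b and mir-93. The 5p arm had 40.9 to 96.9% of the mir-106b reads in the six-tissue set, and the strains were up to 32.3 percentage points apart in the same tissue, close to the 35.0 points between the tissue means. For mir-93 the 5p arm had 30.9% (exact 95% interval 24 to 38.6) and 39.3% (32 to 47) of the reads in the BN-Lx and SHR spleen, the lowest of the 12, and all 8 reads in the SHR testis (63.1 to 100%).

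The 5p share of mir-25 was 12.4% (9.41 to 16) and 10.3% (6.88 to 14.6) in brain and 0.382 to 6.45% in the other tissues. Both brains were thus above the other 10 libraries, while the level of mir-25-5p itself differed by 0.04 ± 0.593 in brain and did not pass. The 5p share of mir-20a was 71.4% (41.9 to 91.6) and 73.5% (55.6 to 87.1) in testis, with 14 and 34 reads, and 80.6 to 91.1% elsewhere in the set. In the permutation test, these shares had p = 0.0303 (mir-93), 0.0354 (mir-25) and 0.0238 (mir-20a), each with an adjusted p of 0.191 (exact permutation), and did not pass. Intervals cover counting error only, since reads amplified by PCR are not independent molecules.

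**Figure D4:**
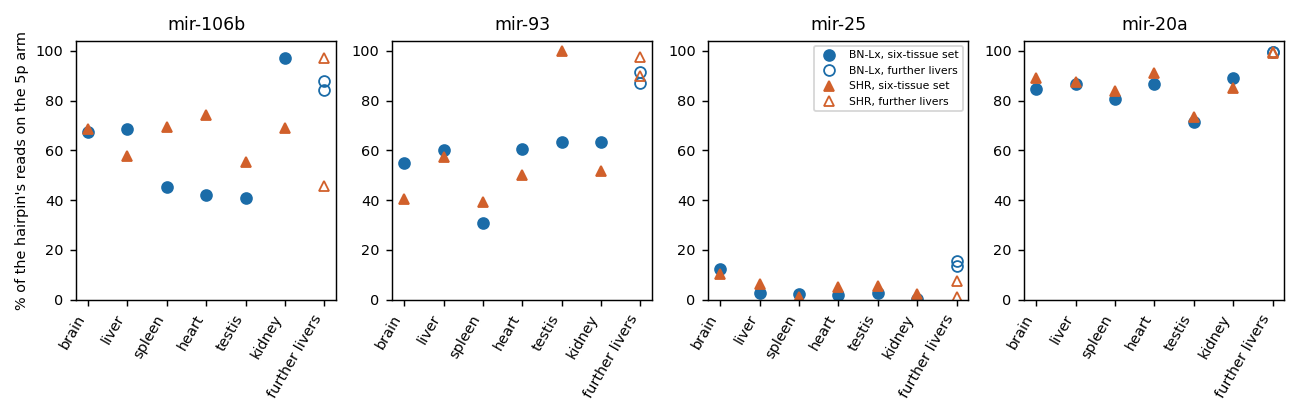
Share of the reads of a hairpin that lay on its 5p arm (percent) for mir-106b, mir-93, mir-25 and mir-20a, 1 point per library. mir-25 was at 12.4% and 10.3% in brain and at most 6.45% in the other tissues of the set, and mir-20a was at 98.9 to 99.6% in the further livers.

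The 5′ end places the seed, and on each guide most reads shared it. For mir-20a-5p, which had the lowest single value of the guides, 79.9 to 90.2% of reads started at the leading position in the six-tissue set and 97.3 to 98.7% in the further livers, and the other reads nearly all started downstream. For mir-19b-1-3p the share was 97.4 to 99.0% in the six-tissue set and 99.4 to 99.7% in the further livers. mir-25-3p started at the leading base in all 71 and 66 testis reads and in 94.8 to 99.2% of reads in the other tissues of the six-tissue set (exact permutation p = 0.00904, adjusted p = 0.172). The mean length of mir-20a-5p was 21.7 to 22.1 nt in brain and spleen and 22.6 and 22.9 nt in the six-tissue livers (exact permutation p = 0.0392, adjusted p = 0.191).

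The further livers differed from the livers of the six-tissue set in the make-up of the clusters. The levels below are after scaling, with TMM factors of 0.834 and 0.786 in the six-tissue livers (BN-Lx, SHR). In the further ones the factors were 0.544 and 0.537 (BN-Lx liver 2 and 3) and 0.436 and 0.424 (SHR liver 2 and 3). As an unscaled share of the library, the summed mir-17-92 reads were 1.12% and 1.13% in the six-tissue livers. In the further livers they were 1.56, 2.95, 1.13 and 0.917%, and the sets overlapped. The level of mir-19a-3p was 1009 and 992 in the six-tissue livers (BN-Lx, SHR) and 8141, 18501, 8585 and 4535 in the further ones (BN-Lx liver 2 and 3, SHR liver 2 and 3). That of mir-20a-5p went from 446 and 404 to 4650.3, 9009.6, 2092 and 3286, and that of mir-18a-5p from 282 and 139.6 to 864, 1541, 879 and 711. The 4 further livers lay above both six-tissue livers for these 3 guides without overlap. The same held for mir-19b-1-5p, mir-19b-1-3p, mir-92a-1-5p and mir-93-5p. They lay below for mir-20a-3p, mir-92a-1-3p and mir-106b-3p, and the other member arms overlapped. The share of all arms that part the sets in this way was not counted, so no weight is put on the separation. In a fit of the 6 livers with the set and the strain as terms, chosen after the difference was seen, mir-20a-5p was higher by 3.30 ± 0.517 (edgeR, adjusted p = 0.00937), mir-19a-3p by 3.2 ± 0.557 (edgeR, adjusted p = 0.0108), mir-18a-5p by 2.29 ± 0.368 (edgeR, adjusted p = 0.00937) and mir-19b-1-5p by 2.21 ± 0.492 (edgeR, adjusted p = 0.0224).

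These 4 arms of 14 tested were higher and 0 lower, where 19% of all arms tested were higher and 6.21% lower. mir-19b-1-3p, 1 base from mir-19a-3p in sequence, differed by 0.86 ± 0.408 (edgeR, adjusted p = 0.184), and mir-92a-1-3p by -0.81 ± 0.428 (edgeR, adjusted p = 0.222). As a share of the mir-17-92 guide reads, mir-19a-3p took 7.66% and 7.01% in the six-tissue livers and 28.8, 34.1, 33.6 and 21.3% in the further ones. mir-92a-1-3p took 32.7% and 35.1% and then 12.9, 2.37, 9.14 and 15.7%, without overlap. The shares of mir-19a-3p did not overlap between the sets either.

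In mir-106b-25, mir-93-5p had a level of 30.7 and 58.4 in the six-tissue livers and 113, 172, 1106 and 211 in the further ones (difference 2.85 ± 0.832; edgeR, adjusted p = 0.0501). The SHR liver 2 stood out, with 58.4% (exact 95% interval 56.4 to 60.3) of its cluster guide reads against 2.75 to 30.7% in the other 5 livers. mir-106b-5p and mir-25-3p differed by -0.24 and -0.42 and did not pass. Read ends differed as well: mir-20a-5p reads averaged 23.02 to 23.18 nt in the further livers, and 98.9 to 99.6% of the mir-20a reads were on the 5p arm, against 86.6% and 87.4% in the six-tissue livers. The sets also differ in depth and in the shortest read, 17 nt in the six-tissue set and 15 nt in the further livers. Reads under 17 nt made up 0.133 to 0.278% of the further livers. The rats, the preparation of the libraries and the sequencing run cannot be told apart.

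**Figure D5:**
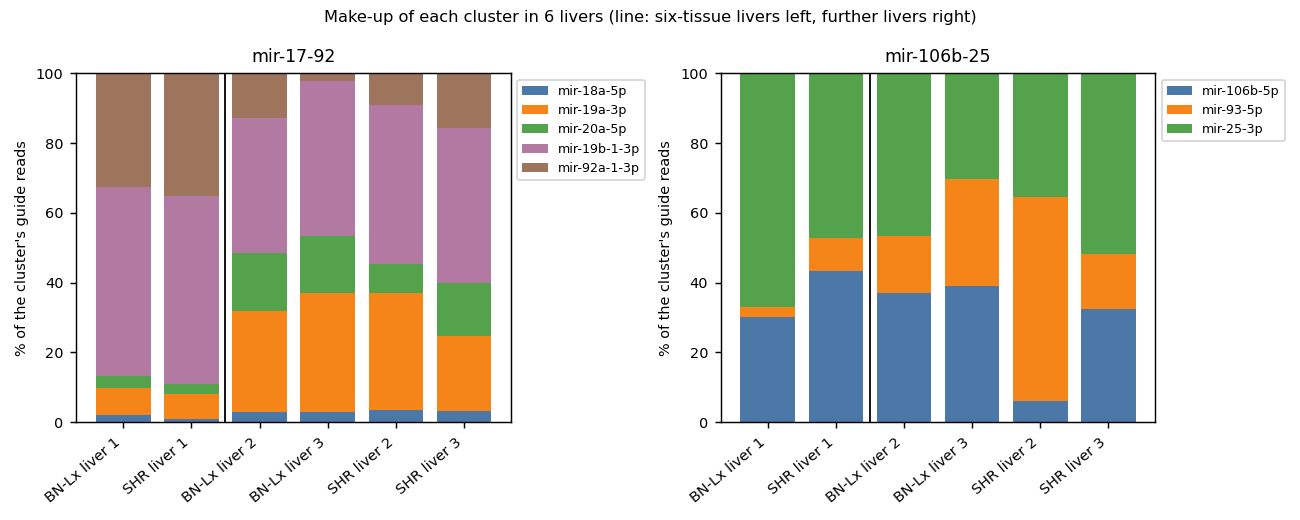
Make-up of the guide reads of each cluster in 6 livers (percent of the cluster's guide reads, stacked to 100), with the six-tissue livers left of the line. The further livers have more mir-19a-3p (21.3 to 34.1%) and mir-20a-5p and less mir-92a-1-3p, and mir-93-5p takes 58.4% of mir-106b-25 in SHR liver 2.

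No member was shown to differ between the strains. Over the 6 tissues, with the tissue as a term, 0 of 15 member arms passed (0.0% of 440 arms did; 0 members and 13 arms had an unadjusted p under 0.05), and the differences of the guides, SHR minus BN-Lx, lay between -0.62 ± 0.402 for mir-18a-5p and 0.46 ± 0.306 for mir-92a-1-3p. In liver, with 3 rats of each strain, 0 of 14 arms passed (0.0% of 269 arms did; 0 members and 7 arms had an unadjusted p under 0.05, and DESeq2 called 0 arms). The widest difference was that of mir-93-5p, 2.12 ± 1.11, which was 0.36 without SHR liver 2. mir-20a-5p differed by -1.29 ± 1.07 and mir-19a-3p by -0.97 ± 1.07, and without BN-Lx liver 3 they differed by -0.40 and 0.04. Over all alternatives mir-20a-5p ranged from -1.91 to -0.40.

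The livers with the same replicate number deviated together (correlations of 0.659, 0.576 and 0.304 over 269 arms), number 1 being the six-tissue set. BN-Lx liver 3 and SHR liver 2 correlated at 0.159, and the other mismatched pairs at -0.558 to 0.007. A difference between the sets enters all these values, and the labels give no pairing of rats. With the number as a block, 0 of 14 member arms passed (0.0% of 269 arms did; 1 member and 25 arms had an unadjusted p under 0.05), and mir-20a-5p was nearest at -0.93 ± 0.361 (edgeR, adjusted p = 0.390). An exact two-sided permutation test of 3 against 3 livers for each guide and for the ratio of the clusters gave p = 0.4 to 0.9 over 9 tests. The smallest p it can give is 0.1, so that it cannot reach 0.05, and all 9 measures overlapped between the strains.

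Across the 12 six-tissue libraries, the guides of mir-17-92 correlated with each other at r = 0.618 to 0.977 (median 0.815 over 10 pairs, log2 levels), those of mir-106b-25 at 0.355 to 0.722 (3 pairs), and guides of different clusters at 0.388 to 0.850 (15 pairs). The points are libraries of 6 tissues that share a scaling and, by strain, a rat, so these values are a description. Among 239 arms of other seed families with at least 10 reads in 6 libraries, the profile most like the mean of the mir-17-92 guides was that of hsa-mir-362-3p (named in the data for its human homologue; r = 0.962), then mir-872-3p (0.918), mir-872-5p (0.879), mir-21-5p (0.870) and mir-15b-5p (0.868). For mir-106b-25 it was mir-872-3p (0.840), hsa-mir-362-3p (0.810), mir-425-5p (0.797), mir-223-3p (0.738) and mir-15b-5p (0.732).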

How the data were processed

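Small RNA of the 16 samples was sequenced on SOLiD. The deposited tables hold, per hairpin and read position, expected counts made by the authors: linker-trimmed reads were aligned with SHRiMP to hairpins found on the rat genome RGSC3.4 together with those of miRBase, perfect matches were kept, and a read that fitted several hairpins was divided evenly between them. No library was pooled, and 0 columns of per-sample values were left unused.

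From these expected counts, reads were summed per hairpin, arm and library, an arm being the reads nearer to 1 of the leading read midpoints, which lie more than 20 nt apart. Sums were rounded to whole numbers for edgeR, scaled by TMM over the 16 libraries, filtered with filterByExpr and tested with the quasi-likelihood test (terms for tissue and strain). Calls have a Benjamini-Hochberg adjusted p of at most 0.05 over all arms tested. Each tissue has a library of either strain and no other replicate, and p-values measure only the spread between these libraries. Ratios, arm shares and read ends were compared with exact permutation tests. Total reads per library ran from 26880 to 1064894 over the 6 tissues and from 1167607 to 3229461 over the further livers, and testis was the shallowest. Whether replicate numbers pair the livers was checked by correlating deviations from the strain means (0.659, 0.576 and 0.304, all over 0.1). The main strain test in liver was unpaired, and the numbers entered only as a block in an alternative fit. The mismatched BN-Lx liver 3 and SHR liver 2 were at 0.159, also over 0.1, so the check does not establish a pairing. Alternatives were other scalings (RLE, total reads, the outlier-corrected mean), no filter, DESeq2, reads thinned to the shallowest library, and each library left out. The fits were tested on simulated data.

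All 16 member arms are accounted for, and arms were named as members or as related hairpins of the same seed family, plus the 5 arms most like each cluster. The members and lists were chosen with earlier results of these data known. Software was R 4.3.3, edgeR 4.0.16, limma 3.58.1, DESeq2 1.42.0, SciPy 1.17.1, pandas 2.3.3, NumPy 2.4.6 and Python 3.11.15.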

Additional observations from a re-analysis of the deposited data

Results flagged for a closer look

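In the liver, 2 measures had strain differences of opposite direction in the six-tissue set (1 rat per strain) and in the further livers (2 per strain). SHR minus BN-Lx, the level of mir-25-3p differed by -1.34 on the log2 scale in the six-tissue livers and by 1.54 in the further ones. The log2 ratio of mir-17-92 to mir-106b-25 differed by 0.68 and by -1.99. Neither difference between the sets was tested.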

How the results depend on the processing

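Of 268 alternatives of the counts of member arms past the threshold and of the permutation results, 230 left them within 1.5 times of the value given. Results that were 0 and stayed 0 are among the 230, so this share does not measure how stable the other counts are. After thinning to the shallowest library, 7 arms differed between tissues, 2 were called in liver, 7 in spleen, 2 in heart and 6 in testis. With RLE size factors 1 was called in heart and 6 in testis, with the outlier-corrected mean 1 in liver, 3 in heart and 8 in testis, and with total reads 1 in liver, 3 in heart and 8 in testis. With every arm that had at least 1 read 1 was called in heart, and DESeq2 called 6 in heart, 7 in testis and 2 in kidney. The 5-fold rule was met by 2 arms without the SHR libraries and by 4 without the BN-Lx libraries. The causes were not tested.

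With each library left out in turn, the number of member arms called was 9 to 14 for any difference between tissues, 9 to 10 in brain, 1 to 4 in liver, 5 to 14 in spleen, 0 to 2 in heart, 1 to 3 in testis, 0 to 1 in kidney and 0 between the strains. Without either liver library 1 was called in liver, and 2 without either spleen or the SHR heart library. Of the guide ratios 0 to 1 passed, the 1 without either heart library. Without both testis libraries, chosen after seeing the data, 9 were called in brain and 14 in spleen.

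For 18 named tissue differences of guides, 327 of 358 alternatives kept the call, 31 lost it and 0 turned the direction; mir-19a-3p lost it in 11 of 20 in liver and in 9 of 19 in testis. The strain difference of mir-19a-3p in liver ranged from -1.74 without SHR liver 2 to 0.040 without BN-Lx liver 3, where it turned. With the replicate number as a block, pairing the livers, 0 member arms were called between the strains, and the block changed no other call. Depth limits testis, where 4 guides had under 40 reads in a library.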
